A study of Mus musculus with 6 samples.

Results

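The 5 complexes of the mitochondrial respiratory chain were followed through the transcripts of their nuclear-encoded subunits in neural stem cells of 3 Ecrg4 genotypes. Members were all probes whose annotated gene symbol begins with Nduf (complex I), Uqcr (complex III) or Atp5 (complex V), or reads Sdha to Sdhd (complex II) or Cox4 to Cox8 followed by a, b or c (complex IV). The rule found 77 probes for 76 genes among 23466 probes. It reads symbols and no measured values, but it was chosen with earlier results of these data known. The cells were cultured from the brains of C57BL6 mice at P0, the day of birth, and received no treatment; their medium was DMEM/F12 supplemented with heparin, EGF and bFGF. The labels give their Ecrg4 genotype as wt, hetero or homo, called wild type, heterozygous and homozygous here, with 2 arrays for each. Ecrg4 encodes a small secreted protein. The sources used here give neither the change made to the allele nor whether the arrays of 1 genotype stem from different mice or cultures. The p-values below reflect the spread between arrays of the same genotype, pooled over the 3 genotypes. Those arrays may differ only technically.

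The respiratory chain sits in the inner mitochondrial membrane. Complexes I and II pass electrons from NADH and succinate to ubiquinone, complex III passes them to cytochrome c and complex IV to oxygen, while complex V, the ATP synthase, uses the proton gradient to make ATP. Most subunits are encoded in the nucleus, and some subunits of complexes I, III, IV and V are encoded by mitochondrial DNA. Neural stem cells in mitogen culture are known to rely strongly on glycolysis and to raise oxidative phosphorylation as they differentiate into neurons.

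The deposited values are array intensities on a linear scale with a median of 30 on every array, and the number of arrays limits their precision. Between 50.5 and 57.6 lay the 95th percentile of 663 olfactory receptor probes, used as the background level. The Ecrg4 probe read 112.9 and 154.9 in wild type, 345.5 and 373.9 in heterozygous and 1.4 and 1.3 in homozygous arrays. The probe was thus lowest where the label says homozygous, while heterozygous arrays read higher than wild type, against the order that allele number would give. Of 8 neural stem cell markers measured, 7 exceeded background on all 6 arrays. No marker of striated muscle (7 measured) or microglia (7) did so, and neither did any of 6 endothelial markers. Of 8 astrocyte markers, 4 did so, with sums over the list from 8852 to 11113 and list medians of -0.09 between homozygous and wild type, 0.84 between heterozygous and wild type and -0.48 between homozygous and heterozygous. Of 8 oligodendrocyte markers, 3 did so, with sums from 10336 to 14417. Summed over its 8 probes, the pericyte and fibroblast list read 1063 to 1353 in wild type, 402 to 409 in heterozygous and 205 to 237 in homozygous arrays. Of these probes 7 lay under background on all arrays, so that the sum rests on Acta2, and the list medians against wild type were -0.34 for homozygous and -0.07 for heterozygous. The 9 neuron markers summed to 2008 to 2025, 4039 to 5370 and 5189 to 5251 in the same order. Here too 7 lay under background on all arrays and most of the sum was Gap43, while the list median against wild type was -0.11 for heterozygous, with 6 of 9 below 0, and 0.28 for homozygous. At a limma adjusted p under 0.05, 2 neuron markers were higher in homozygous and 1 in heterozygous than in wild-type arrays. Between homozygous and heterozygous 1 was higher. In each comparison 1 pericyte and fibroblast marker was lower. Some astrocyte and microglia markers passed as well. Of all probes tested, 0.92%, 0.749% and 2.69% passed in these 3 comparisons. The part of these lists in the results below was not tested, and with bulk RNA fewer cells of a type and less RNA per cell cannot be told apart.

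Respiratory chain transcripts were abundant. Of the 77 probes, 70 exceeded background on all 6 arrays, 6 lay under it on all 6 and Atp5s exceeded it on 3. Among the 75 members with a value on every array this share was 93.3%, against 40.8% of all 20434 probes tested. The dim ones were Ndufa3, Ndufc1, Uqcrq, Cox6a2, Cox8b and Cox8c. Uqcrq and Cox8c had blank cells and were not tested.

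Few members passed the threshold in any comparison, as did few probes overall. Between homozygous and wild type, 0 of 75 members passed the threshold, against 0.92% of all probes tested (limma, Benjamini-Hochberg adjusted p under 0.05), and 18 of 75 had an unadjusted p under 0.05, a larger share than the 19.0% of all probes. Between heterozygous and wild type it was also 0 of 75, against 0.749% of all probes, with 7 at an unadjusted p under 0.05, or 9.33%, against 13.5%. Between homozygous and heterozygous, 1 member passed, against 2.69% of all probes, and 9 of 75 had an unadjusted p under 0.05, a smaller share than the 18.2% of all probes. The standard error of a member's log2 fold change had a median of 0.16. The 95% interval excluded a change of 2-fold or more in either direction for 70 of 75 members between homozygous and wild type, for 70 between heterozygous and wild type and for 69 between homozygous and heterozygous. Over all probes tested the shares were 73.3%, 76.0% and 74.6%.

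As a list the members lay slightly lower in the homozygous arrays. Against wild type their log2 fold changes had a median of -0.17, with 56 of 75 members below 0, while the median over all probes was 0.02. Against heterozygous it was -0.22, with 61 of 75 below 0 (0.04 over all probes), and between heterozygous and wild type it was -0.02, with 39 of 75 below 0 (-0.01 over all probes). The comparisons share arrays and are not independent. For 39 members, or 52.0%, both homozygous arrays lay below both wild-type arrays, against 24.8% of all probes. For 5 members, or 6.67%, both lay above, against 25.7%. Among probes with a mean intensity over 2000 the gap was narrower, with both homozygous arrays lower for 57.6% of 59 members and 48.6% of 915 other probes, and both higher for 5.08% and 11.8%. Against heterozygous, 50 members had both homozygous arrays lower (66.7%, against 25.9% of all probes) and 8 had both higher (10.7%, against 28.7%). Over 2000 the shares lower were 72.9% of members and 57.9% of other probes. Between heterozygous and wild type, 17 members were lower and 13 higher without overlap, or 22.7% and 17.3%, against 24.5% and 21.0%. Scaling by intensity reduced the homozygous shift to medians between -0.06 and -0.05, as set out after the complexes.

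**Figure D1:**
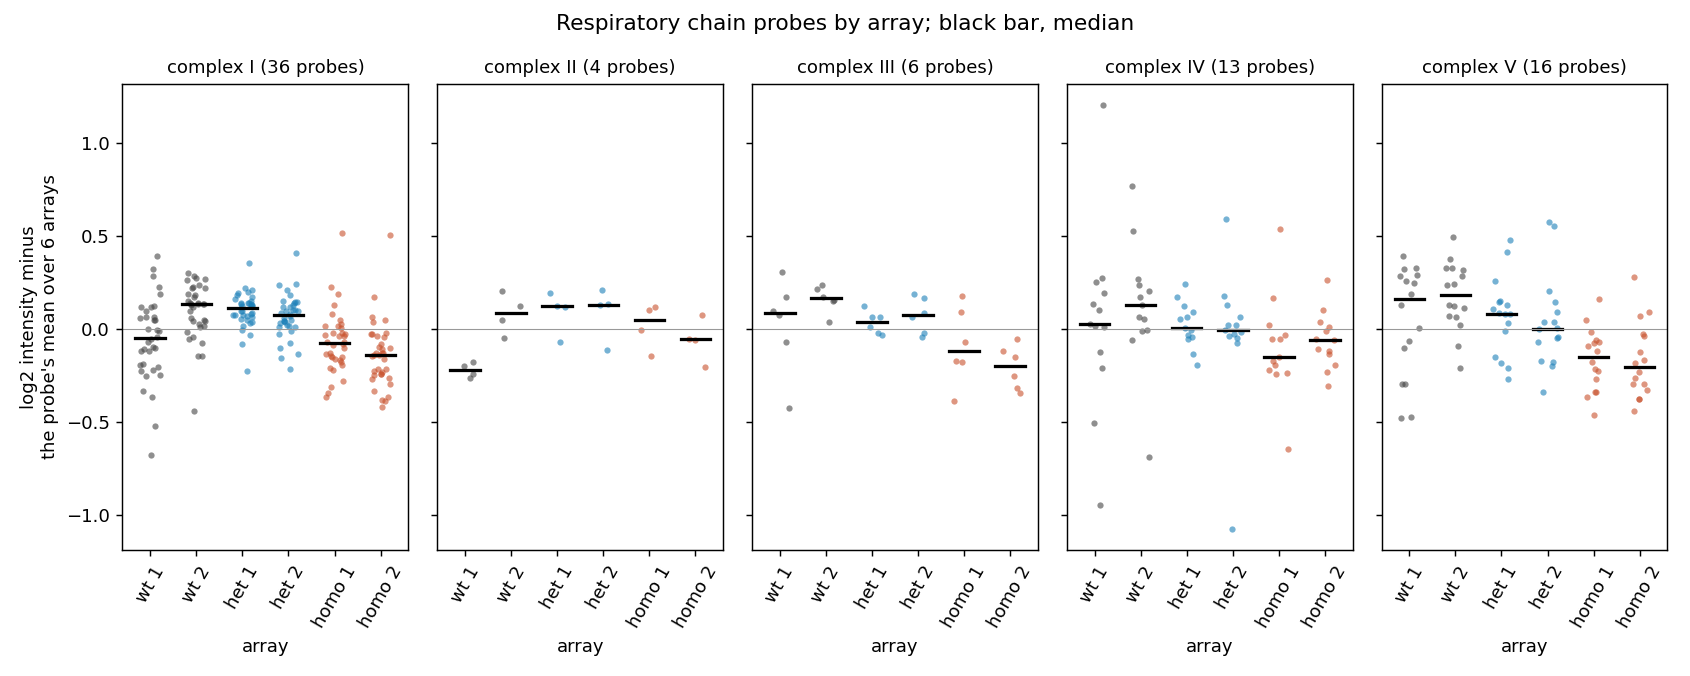
Log2 intensity of each tested member minus its own mean over the 6 arrays, by complex and array; each dot is a probe and the black bar is the median. In complexes I, III, IV and V the medians of both homozygous arrays (between -0.21 and -0.06) lie below those of the other 4 arrays, while in complex II wild-type array 1 is lowest at -0.22.

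Over all 75 members, the median deviation from each probe's own mean was 0.0 and 0.13 on the wild-type arrays, 0.08 and 0.04 on the heterozygous arrays and -0.08 and -0.14 on the homozygous arrays, in log2 units. The homozygous arrays were thus the lowest pair, and the gap between the wild-type arrays was nearly as wide as that from wild-type array 1 to homozygous array 2. Wild-type arrays differed most from each other. Their members lay a median of 0.21 apart on the log2 scale, compared with 0.08 in the heterozygous pair and 0.09 in the homozygous pair, and 7 members were over 1.5-fold apart. Among these were Cox5a, a matrix-side subunit of complex IV (3709.1 and 7609.7), and Uqcrfs1, the Rieske iron-sulphur protein of complex III (1768.3 and 2653.7). The ATP synthase genes Atp5a1 (2839.3 and 4930.3) and Atp5c1 (6326.0 and 11085.3) were also among them. Without wild-type array 1 the median of all members between homozygous and wild type was -0.29, and without wild-type array 2 it was -0.12.

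The member that passed was Atp5e, which encodes the epsilon subunit in the central stalk of the ATP synthase. It read 5055.2 and 4676.6 in wild type, 7231.1 and 7951.3 in heterozygous and 4210.2 and 4415.3 in homozygous arrays. The heterozygous arrays were high, and the 3 genotypes did not overlap. Atp5e was lower in homozygous than in heterozygous arrays (log2 fold change -0.81 ± 0.15, standard error, n = 2 arrays each, limma adjusted p = 0.0489). Against wild type, the difference was 0.64 ± 0.15 for heterozygous (adjusted p = 0.173) and -0.17 ± 0.15 for homozygous (adjusted p = 0.555), and neither passed. The call is close to the threshold: it ended with quantile (0.0982) or cyclic loess scaling (0.0863), with blank cells filled (0.0762), with the replicate number as a block (0.106), with only the arrays compared or without either wild-type array (0.0508 in each), and without heterozygous array 1 (0.153) or 2 (0.243) or homozygous array 1 (0.275) or 2 (0.27). It held with median centring (0.0483), array weights (0.0212), a pseudocount (0.00559), a filter on dim probes (0.00908) and an intensity trend (0.00257).

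Cox6b2 and Ndufb2 had the highest log2 fold changes of the members between homozygous and wild type. Ndufb2 encodes an accessory subunit in the membrane arm of complex I. It read 1434.0 and 1865.8 in wild type, 1764.2 and 1878.2 in heterozygous and 2950.3 and 2930.1 in homozygous arrays. Both homozygous arrays stood above the other 4, with a log2 fold change of 0.85 ± 0.18 against wild type (limma adjusted p = 0.0922) and 0.69 ± 0.18 against heterozygous (adjusted p = 0.113). Cox6b2 encodes the form of a complex IV subunit that is best known from testis. It read 123.4 and 147.3 in wild type, 280.6 and 358.1 in heterozygous and 345.7 and 285.5 in homozygous arrays. Here the wild-type arrays were low and the other genotypes overlapped, with 1.23 ± 0.20 for heterozygous (limma adjusted p = 0.0707) and 1.22 ± 0.20 for homozygous (adjusted p = 0.058) against wild type. Its widely expressed counterpart Cox6b1 gave -0.03 ± 0.18 and -0.30 ± 0.18 in the same comparisons. After cyclic loess scaling both genes passed between homozygous and wild type, Ndufb2 at 0.93 ± 0.15 (limma adjusted p = 0.049) and Cox6b2 at 1.20 ± 0.20 (0.0486), and Ndufb2 passed against heterozygous as well (0.81 ± 0.15, 0.046). Leaving out any single array moved none of these differences past the threshold. The probe sequences were not used here, so transcripts of related copies cannot be told apart.

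**Figure D2:**
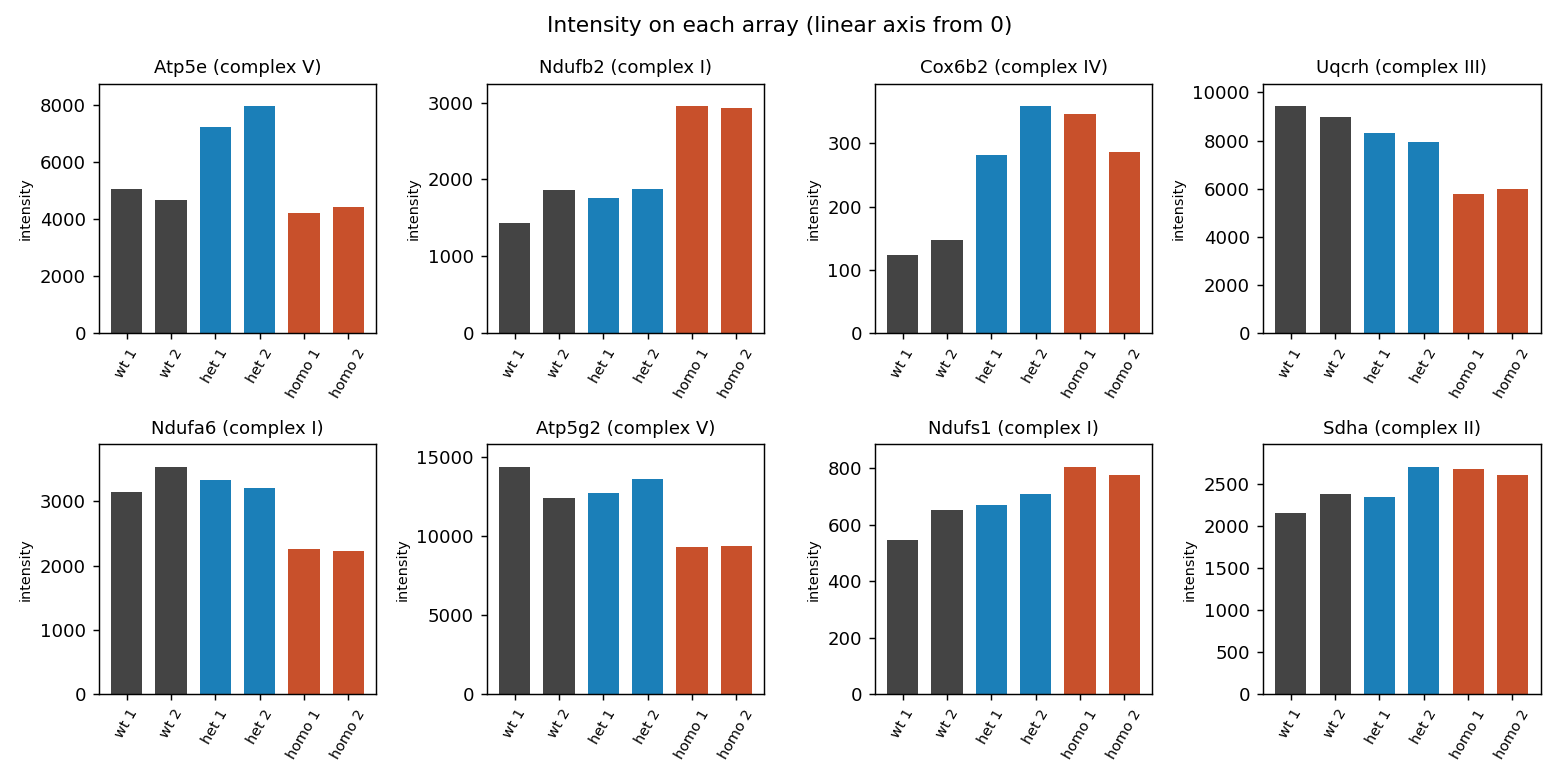
Deposited intensity of 8 members on each of the 6 arrays, on linear axes that start at 0 and differ between panels. Atp5e is highest in both heterozygous arrays, Ndufb2 in both homozygous arrays, Cox6b2 is lowest in both wild-type arrays, and Uqcrh, Ndufa6 and Atp5g2 are lowest in both homozygous arrays.

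Promoter sequences, which the rule did not use, were examined for the respiratory chain genes. Many nuclear genes of the chain are known to be driven from promoters bound by NRF1, by ETS factors such as GABP, and by YY1. RefSeq windows of 250 bases before to 50 after the transcription start (GRCm38.p6) were matched for 65 of the 76 genes, using the first window listed for each gene, and were searched on both strands. The ETS letters CCGGAAG stood in 15 of 65 windows, or 23.1%, against 11.9% of 17491 protein-coding genes and 9.12% of all 27025 genes with a window. A palindromic NRF1 motif stood in 16, or 24.6%, against 6.6% and 4.78%, and the YY1 letters AAGATGGC in 9, or 13.8%, against 3.22% and 2.88%. At least 1 of these motifs was found in 35 windows, or 53.8%, against 19.5% of protein-coding genes and 15.2% of all genes. The palindromic CRE letters TGACGTCA stood in 4 windows (6.15%, against 2.34% and 1.88%), the E-box CACGTG in 6 (9.23%, against 7.9% and 7.24%), and the TATA letters TATAAA in 6 (9.23%, against 13.3% and 14.2%). The members' windows held a median of 19 CG dinucleotides, against 13 in protein-coding and 7 in all genes, and the NRF1 and ETS letters both hold CG. Probes whose window held an ETS, NRF1 or YY1 match (36) had a median of -0.24 (log2) between homozygous and wild type, and those without (30) one of -0.12. Between heterozygous and wild type the medians were 0.0 and -0.04. These are medians of the deposited values, in which the homozygous shift went with probe brightness, as set out after the complexes. The groups were not matched for brightness, and the difference between them was not tested.

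**Figure D3:**
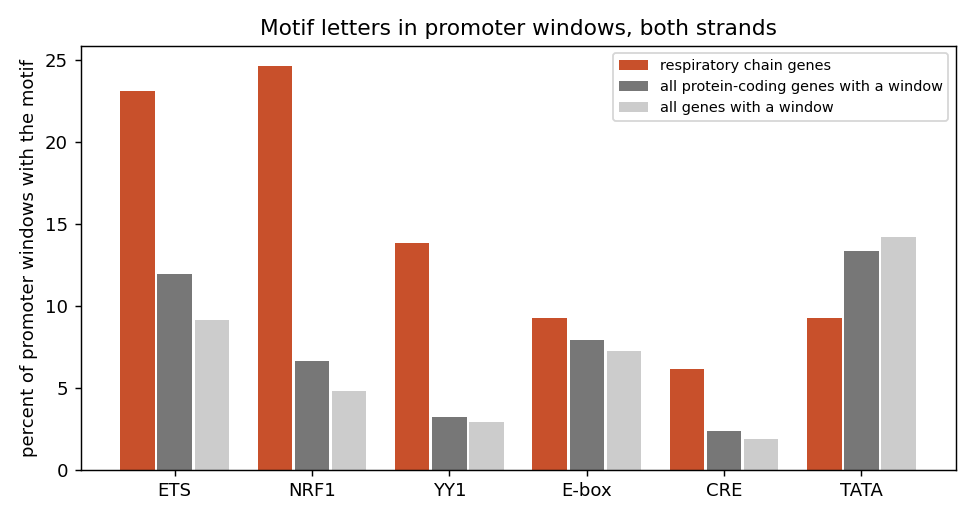
Percentage of promoter windows that hold each motif on either strand, for the 65 respiratory chain genes with a window, for all protein-coding genes and for all genes. The NRF1 letters stand in 24.6%, 6.6% and 4.78% of windows, and the TATA letters in 9.23%, 13.3% and 14.2%.

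The 250 bases upstream of the start are given 5′ to 3′ on the gene's strand for 6 genes, with ETS, NRF1 and YY1 matches in capitals. These genes were picked by hand as examples of different patterns, so they do not show how matches and patterns go together. Atp5e, highest in heterozygous arrays, is shown first (chr2:174464102-174464351, minus strand), with an ETS match that begins 102 bases before the start. Atp5g2 (chr15:102671048-102671297, minus strand) and Uqcrh (chr4:116075071-116075320, minus strand) were lower in homozygous arrays without overlap, and hold an NRF1 match from 42 and an ETS match from 10 bases before the start. Ndufb3 and Ndufa12, not shown, were also lower in homozygous arrays without overlap, and their windows hold no ETS, NRF1 or YY1 match. Sdha (chr13:74350241-74350490, minus strand), which did not follow them, holds 3 NRF1 matches. Ndufb2 (chr6:39592315-39592564, plus strand) and Cox6b2 (chr7:4753095-4753344, minus strand) hold no ETS, NRF1 or YY1 match here. The stretch of Ndufb2 does hold the CRE letters, which are not put in capitals. A match is a description of the letters and not a binding site.
Atp5e: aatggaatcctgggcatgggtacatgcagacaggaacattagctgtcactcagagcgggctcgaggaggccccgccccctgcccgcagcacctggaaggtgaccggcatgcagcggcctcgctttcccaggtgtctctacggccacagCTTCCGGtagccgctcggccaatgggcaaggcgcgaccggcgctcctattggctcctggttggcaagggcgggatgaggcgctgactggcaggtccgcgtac
Atp5g2: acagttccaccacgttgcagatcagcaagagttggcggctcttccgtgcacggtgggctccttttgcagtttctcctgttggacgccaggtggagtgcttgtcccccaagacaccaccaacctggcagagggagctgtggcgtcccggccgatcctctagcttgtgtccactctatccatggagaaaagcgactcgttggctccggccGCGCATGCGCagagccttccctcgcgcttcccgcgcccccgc
Uqcrh: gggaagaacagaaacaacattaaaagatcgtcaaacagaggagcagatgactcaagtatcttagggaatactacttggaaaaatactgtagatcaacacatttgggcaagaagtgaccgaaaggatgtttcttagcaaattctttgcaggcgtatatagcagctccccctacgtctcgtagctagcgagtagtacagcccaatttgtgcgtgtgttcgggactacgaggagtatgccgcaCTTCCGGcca
Sdha: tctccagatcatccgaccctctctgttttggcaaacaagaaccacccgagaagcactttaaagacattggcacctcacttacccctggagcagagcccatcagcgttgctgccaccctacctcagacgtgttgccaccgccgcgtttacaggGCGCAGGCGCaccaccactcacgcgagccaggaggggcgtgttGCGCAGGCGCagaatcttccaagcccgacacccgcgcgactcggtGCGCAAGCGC
Ndufb2: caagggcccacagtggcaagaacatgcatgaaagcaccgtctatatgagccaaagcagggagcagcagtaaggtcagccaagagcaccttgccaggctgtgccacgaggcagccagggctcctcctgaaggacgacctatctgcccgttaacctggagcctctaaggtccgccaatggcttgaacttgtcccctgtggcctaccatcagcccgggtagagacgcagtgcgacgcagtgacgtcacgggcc
Cox6b2: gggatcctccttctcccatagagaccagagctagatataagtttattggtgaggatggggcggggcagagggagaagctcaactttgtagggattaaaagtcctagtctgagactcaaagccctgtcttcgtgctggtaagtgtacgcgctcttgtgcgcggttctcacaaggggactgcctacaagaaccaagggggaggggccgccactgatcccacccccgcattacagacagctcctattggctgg

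Complex I, NADH dehydrogenase, was represented by 36 tested probes, and none passed in any comparison. Their median log2 fold change was -0.17 between homozygous and wild type, with 25 of 36 below 0, 0.02 between heterozygous and wild type, and -0.24 between homozygous and heterozygous, with 31 of 36 below 0. The 6 probes of its catalytic core, which carries the flavin and iron-sulphur clusters, were divided, with 3 below and 3 above 0 against wild type and a range from -0.38 to 0.41. The core gene Ndufs1, which holds iron-sulphur clusters of the electron input module, read 545.4 and 650.9 in wild type, 670.7 and 707.7 in heterozygous and 803.5 and 775.7 in homozygous arrays. Its genotypes did not overlap, and the difference of homozygous from wild type was 0.41 ± 0.16 (limma adjusted p = 0.241). Ndufv1, which binds the flavin that accepts electrons from NADH, read 991.0 and 1152.0, 1201.1 and 1189.6, and 1204.4 and 1120.7 in the same order, and homozygous overlapped both other genotypes.

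The 28 accessory probes of complex I lay lower as a list in homozygous arrays, with a median of -0.21 against wild type and -0.26 against heterozygous, and 25 of 28 below 0 in the latter. For 23 of them, or 82.1%, both homozygous arrays lay below both heterozygous arrays as deposited, against 25.9% of all probes and 57.9% of other probes over 2000. The shares of all members after scaling by intensity are set out after the complexes. Ndufa6, which anchors the mitochondrial acyl carrier protein to the complex, read 3148.2 and 3533.9 in wild type, 3332.0 and 3203.6 in heterozygous and 2254.6 and 2224.6 in homozygous arrays. Both homozygous arrays were low, with -0.57 ± 0.15 against wild type (limma adjusted p = 0.129) and -0.54 ± 0.15 against heterozygous (0.125). Ndufa12 read 15450.0 and 12857.9 in wild type, 11895.2 and 11844.8 in heterozygous and 10164.0 and 9346.4 in homozygous arrays, and its genotypes did not overlap. Its homozygous difference from wild type was -0.53 ± 0.16 (limma adjusted p = 0.167). Ndufc2, a membrane arm subunit, went the other way, from 8188.2 and 6844.4 in wild type to 10643.6 and 10583.7 in heterozygous and 10604.4 and 9745.4 in homozygous arrays. Both of these stood above wild type, by 0.50 ± 0.16 (limma adjusted p = 0.288) and 0.44 ± 0.16 (0.217).

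Of the probes named for complex I, Ndufaf1 and Ndufa4 have other roles, and the complex I medians and counts include them. Ndufaf1 and Ndufs5 were chosen after their values were seen. Ndufaf1, an assembly factor, gave 0.05 ± 0.16 between homozygous and wild type. Ndufa4, once assigned to complex I and now regarded as a subunit of complex IV, gave -0.18 ± 0.15. It read 8527.2 and 8156.5 in wild type and 7159.1 and 7615.0 in homozygous arrays, without overlap (limma adjusted p = 0.548). The accessory subunit gene Ndufs5 had 2 probes, which gave -0.27 ± 0.16 and -0.22 ± 0.14 between homozygous and wild type and so differed by less than their errors.

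Complex II, succinate dehydrogenase, is the one member of the chain encoded wholly in the nucleus and also a citric acid cycle enzyme. Its 4 subunit genes gave a median of 0.06 between homozygous and wild type, 0.19 between heterozygous and wild type and -0.07 between homozygous and heterozygous. The flavoprotein gene Sdha read 2154.0 and 2385.5 in wild type, 2350.7 and 2700.7 in heterozygous and 2681.0 and 2603.9 in homozygous arrays, and homozygous stood above wild type (0.22 ± 0.15, limma adjusted p = 0.473). The iron-sulphur subunit gene Sdhb read 2041.1 and 2828.8, 2804.8 and 2836.5, and 2218.3 and 2125.5 in the same order. Its homozygous arrays lay below the heterozygous pair but within the wild-type range (-0.38 ± 0.19 against heterozygous, adjusted p = 0.366). The membrane anchor gene Sdhc gave 0.07 ± 0.16 between homozygous and wild type. None of the 4 had an unadjusted p under 0.05 in any comparison. Over all probes the shares were 19.0% between homozygous and wild type, 13.5% between heterozygous and wild type and 18.2% between homozygous and heterozygous. With only 4 probes the absence of such values says little about complex II.

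Complex III, the cytochrome bc1 complex, had 6 tested probes with a median of -0.25 between homozygous and wild type, -0.07 between heterozygous and wild type and -0.21 between homozygous and heterozygous. Uqcrh, the hinge protein that aids electron transfer to cytochrome c, read 9420.4 and 8970.2 in wild type, 8294.3 and 7934.4 in heterozygous and 5801.1 and 5986.5 in homozygous arrays. The 3 genotypes were ordered without overlap, and homozygous differed from wild type by -0.64 ± 0.14 (limma adjusted p = 0.102) and from heterozygous by -0.46 ± 0.14 (0.161). The core protein gene Uqcrc1 gave -0.10 ± 0.15 and 0.01 ± 0.15 in these comparisons. For Uqcrfs1 they were 0.20 ± 0.23 and -0.01 ± 0.23, with the wide error of its wild-type arrays.

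Complex IV, cytochrome c oxidase, was covered by 13 tested probes. The 9 broadly expressed ones were all below 0 between homozygous and wild type, between -0.36 and -0.03 with a median of -0.14, and none passed; after cyclic loess scaling 4 of the 9 were below 0. Cox7a2 gave the lowest of these values, -0.36 ± 0.15 (limma adjusted p = 0.255), and read 8745.9 and 9586.1 in wild type, 7921.4 and 7551.3 in heterozygous and 6962.4 and 7323.7 in homozygous arrays, without overlap. Cox5b, Cox7b and Cox8a gave -0.23 ± 0.17, -0.14 ± 0.14 and -0.30 ± 0.15. Cox6a1 read between 20096.8 and 26007.1 on the 6 arrays and gave -0.03 ± 0.17. Cox7a2l, a factor that links complexes III and IV into supercomplexes, gave 0.02 ± 0.16. The muscle forms Cox6a2 and Cox8b lay under background on every array, between 3.2 and 15.6 and between 18.1 and 48.4, so no fold is given for them. The 7 striated muscle markers likewise lay under background on all arrays.

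Complex V, the ATP synthase, had the lowest median of the 5 complexes between homozygous and wild type, -0.35, with 14 of 16 probes below 0; the difference between complexes was not tested. Between heterozygous and wild type the median was -0.11 and between homozygous and heterozygous -0.17. Of the 5 genes for the head and central stalk, Atp5b encodes the subunit that holds the active sites. It read 21041.6 and 18352.9 in wild type, 15151.1 and 14665.3 in heterozygous and 16038.7 and 16539.8 in homozygous arrays. Both wild-type arrays were highest, and the differences were -0.40 ± 0.15 for heterozygous (limma adjusted p = 0.333) and -0.27 ± 0.15 for homozygous (0.373). Atp5a1 and Atp5c1 gave -0.07 ± 0.27 and 0.04 ± 0.27 between homozygous and wild type.

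The 3 genes for the proton-carrying c ring encode the same mature protein, and their probes did not share a pattern. Atp5g2 read 14363.0 and 12399.1 in wild type, 12715.6 and 13606.2 in heterozygous and 9314.6 and 9374.6 in homozygous arrays, with the homozygous pair lowest (-0.51 ± 0.15 against wild type, limma adjusted p = 0.166). Atp5g3 read 32662.2 and 30732.3, 25837.3 and 23126.4, and 22404.0 and 23191.8 in the same order, with the wild-type pair highest (-0.48 ± 0.15 for homozygous, adjusted p = 0.174). Atp5g1 read 512.7 and 402.0, 355.5 and 337.6, and 478.5 and 519.7, with the heterozygous pair lowest (0.53 ± 0.17 for homozygous against heterozygous, adjusted p = 0.189). In the stator stalk, Atp5f1 gave -0.54 ± 0.18 between homozygous and wild type (adjusted p = 0.193). The 3 probes of the membrane part all had both homozygous arrays below both wild-type arrays, as had 24.8% of all probes and 48.6% of other probes over 2000. Among them Atp5j2, the f subunit, gave -0.58 ± 0.16 (limma adjusted p = 0.147). Atp5s, a coupling factor now named Dmac2l, read 41.3 and 71.9 in wild type, 79.8 and 85.3 in heterozygous and 41.5 and 42.2 in homozygous arrays. With the homozygous arrays set at background it was at least 1.53-fold lower than in heterozygous, and its test did not pass (limma adjusted p = 0.129).

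**Figure D4:**
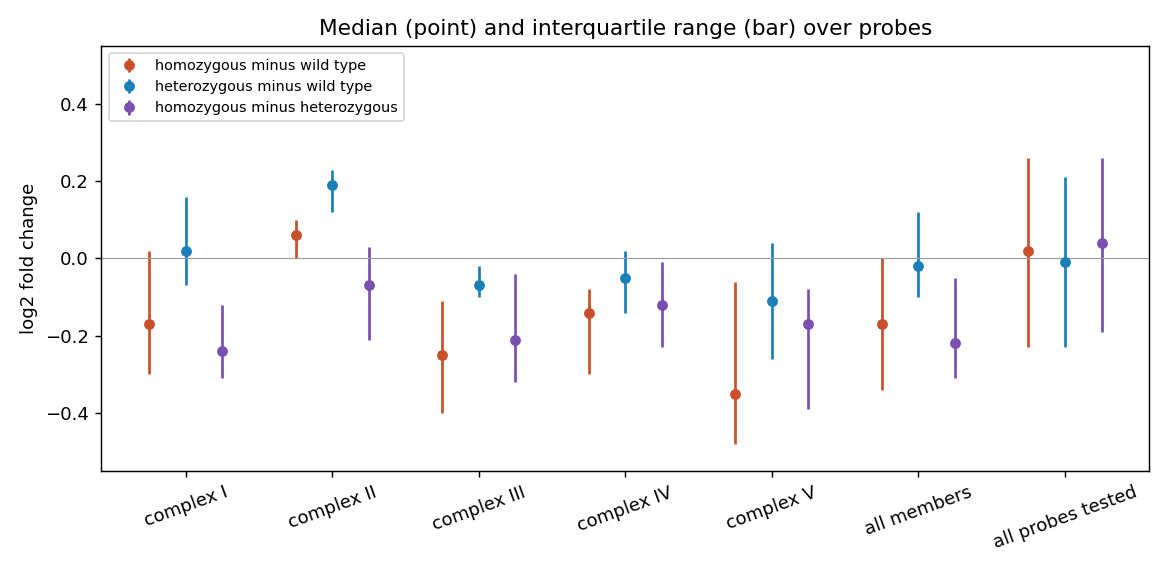
Median (point) and interquartile range (bar) of the log2 fold changes over the tested probes of each complex, of all 75 members and of all 20434 probes, in 3 comparisons that share arrays. Between homozygous and wild type the medians run from -0.35 in complex V to 0.06 in complex II, with 0.02 over all probes.

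Probe brightness moved with this shift. Bright probes in general read lower in homozygous arrays: among 263 other probes with a mean intensity of 8000 or more, log2 fold changes from wild type had a median of -0.23, with 82.9% below 0, beside -0.30 for the 17 members that bright. Between 2000 and 8000 it was -0.10 over 652 other probes and -0.17 over 42 members, and between 500 and 2000 it was -0.03 over 1989 and -0.01 over 7. The highest values on the homozygous arrays were 46976.4 and 47257.1, against 58267.6 to 69523.0 on the other 4. Cyclic loess, which removes trends with intensity, took the members' median between homozygous and wild type to -0.06 (46 of 75 below 0), and quantile normalization took it to -0.05 (45 of 75). Against heterozygous both gave -0.06. Median centring, which moved the median of all probes by 0.06 or less, took the members further down, to -0.23 and -0.27. By complex the sign did not always hold. After cyclic loess the homozygous median against wild type was -0.17 in complex V, the lowest of the 5, and -0.09 in complex III, but 0.05 in complex IV and 0.17 in complex II. Against heterozygous it was 0.04 in complex IV and 0.01 in complex V. After cyclic loess, 30 of 75 members (40.0%) still had both homozygous arrays below both wild-type arrays, against 26.0% of all probes and 28.3% of 915 other probes over 2000, and 10 (13.3%) had both above, against 26.5% and 29.7%. Against heterozygous, 28 members (37.3%) then had both homozygous arrays lower and 16 (21.3%) both higher, against 27.6% and 27.2% of all probes. Over 2000 the shares lower were 35.6% of members and 31.8% of other probes. The part of brightness in the deposited difference was not tested further.

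**Figure D5:**
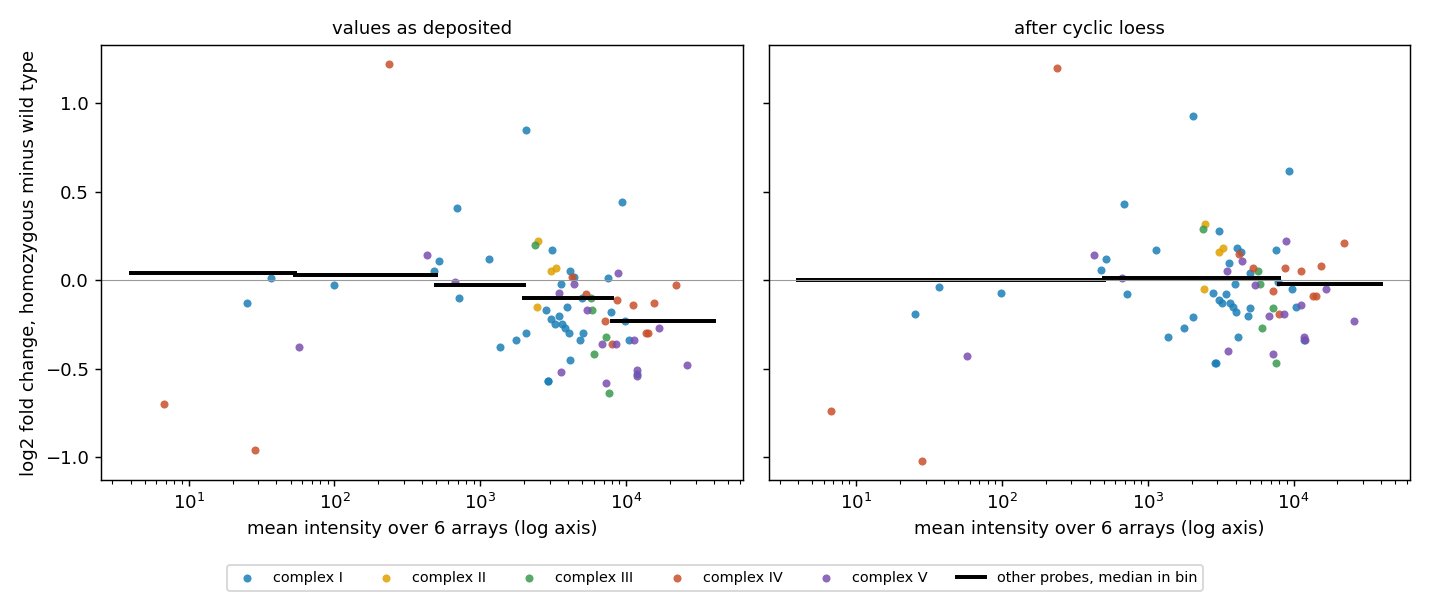
Log2 fold change of each member between homozygous and wild type against its mean intensity (log axis), with values as deposited and after cyclic loess; colours give the complex and black lines the median of all other probes in 5 bins of intensity. In the brightest bin the other probes lie at -0.23 as deposited and at -0.02 after cyclic loess.

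Other genes of the pathway were examined through lists chosen with earlier results of these data known. Of 8 chain genes that the platform lists under older names, outside the rule, 7 were tested and 0 passed in any comparison, against the background shares given above. The complex I gene Ndufv3 read 4376.6 and 5254.0 in wild type, 3984.9 and 3881.3 in heterozygous and 3140.5 and 2805.2 in homozygous arrays, without overlap (-0.69 ± 0.16 for homozygous against wild type, limma adjusted p = 0.115). It was chosen after its values were seen, like Uqcr10, a small complex III subunit, at -0.33 ± 0.14 (0.269). The hypoxia-inducible subunit Ndufa4l2 gave 0.11 ± 0.17. Of the assembly factors and subunits outside the rule, 0 of 43 tested probes in 5 lists passed in any comparison, with medians between homozygous and wild type of -0.04 for complex I (8 probes), -0.02 for complex II (3), 0.04 for complex III (6), -0.15 for complex IV (21) and -0.10 for complex V (5). No mitochondrially encoded subunit was found among the named probes.

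Related mitochondrial genes also showed few calls. Over all probes, 0.92% passed between homozygous and wild type, 0.749% between heterozygous and wild type and 2.69% between homozygous and heterozygous. Among 15 electron carrier and ubiquinone synthesis genes, Pdss1 alone passed (0.99 ± 0.16 between homozygous and heterozygous, limma adjusted p = 0.0385), on a probe under background on all arrays, so its fold cannot be read. Of 17 probes for regulators of mitochondrial gene expression, such as Nrf1, Gabpa and Tfam, 0 passed, with a median of -0.01 between homozygous and wild type, and 0 of 19 citric acid cycle and pyruvate dehydrogenase genes passed, with a median of 0.14. Of 8 carrier and porin genes 0 passed, with a median of 0.01. The 78 probes for mitochondrial ribosomal proteins had 0 calls and a median of -0.10, with 54 of 78 below 0. Among 23 probes for glycolytic enzymes and lactate export the median was -0.57 between homozygous and wild type and -0.61 between homozygous and heterozygous, where 1 of 23, the triosephosphate isomerase gene Tpi1, was lower (-1.17 ± 0.21, limma adjusted p = 0.0485). The difference between this list and the respiratory chain was not tested. All of these list medians are of the deposited values, and the part of brightness in them was not tested.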

How the data were processed

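Cultured neural stem cells of 3 Ecrg4 genotypes were measured on 6 single-colour arrays, 2 per genotype, with groups taken from the labels. The authors' deposited table holds linear intensity values, scaled so that every array has the same median. The scanner, background correction and rule for blank cells are not given in these sources. Probe names came from the platform annotation, in which 16625 of 23466 probes carry 1 symbol, and were updated through RefSeq.

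The log2 of the intensity, with no pseudocount and no further centring, was fitted with limma 3.58.1 in R 4.3.3 over the 20434 probes measured on every array. Each genotype had 1 coefficient, and p-values were two-sided and Benjamini-Hochberg adjusted over all probes, with a threshold of 0.05. With 3 residual degrees of freedom the precision of a single probe is limited. An exact permutation test of 2 arrays against 2 cannot go below 0.333. The fit was also run on simulated data with known changes. These held no trend with intensity and no array effect, so that run does not bear on the shift with brightness.

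Members and lists were chosen with earlier results of these data known. Named members were those past the threshold, the 4 highest and 4 lowest in each comparison, the brightest and dimmest of each complex, tissue isoforms with their partners, and catalytic subunits. Alternatives covered scaling, a pseudocount, a filter on dim probes, blank cells, the variance prior, array weights, the arrays fitted, the replicate number and each array left out.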

Additional observations from a re-analysis of the deposited data

How the results depend on the processing

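Between homozygous and wild type, the 0 members called became 2 with quantile normalization and 2 with cyclic loess (Ndufb2 and Cox6b2, both higher), 7 with the filter on dim probes (2 higher, 5 lower), and 11 each with a pseudocount of 16 and with an intensity trend in the prior (2 higher, 9 lower). These settings also called more of all probes: 1.61%, 1.53%, 8.9%, 5.59% and 5.35%. The members' median of -0.17 became -0.05 with quantile normalization and -0.06 with cyclic loess, and ranged from -0.29 to -0.12 with 1 array left out. Between heterozygous and wild type, the 0 calls became 2 with the pseudocount, 2 with the trend and 1 with the filter, all higher, where 1.5%, 1.96% and 2.07% of all probes were called, and the median ranged from -0.06 to 0.07 with 1 array left out. Between homozygous and heterozygous, the 1 call became 6 with the pseudocount, 6 with the trend, 4 with the filter, 3 with array weights, and 0 with blank cells filled, where 6.73%, 6.64%, 10.2%, 6.17% and 1.36% of all probes were called. It ranged from 0 to 1 with 1 array left out. Where wild-type array 1 or 2 was left out, that call was Atp5s, and with quantile normalization or cyclic loess it was Ndufb2. The median of -0.22 became -0.06 with either scaling and ranged from -0.24 to -0.16 with 1 array left out. The cause of these differences was not tested.

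The replicate numbers did not pair the arrays: deviations of same-numbered arrays correlated at 0.02, 0.01 and -0.08. With the replicate number as a block 0 members were called in each comparison. Of 1671 values of the 35 named members under the alternatives, 0 called values changed sign. As only 1 member was called in the main setting, Atp5e between homozygous and heterozygous, this count says little about the other members. Uncalled values could change sign. Between homozygous and wild type, Cox5a ranged from -0.60 to 0.44 over the settings, while Uqcrh stayed between -0.70 and -0.47. With 2 arrays per genotype and background at 50.5 to 57.6, dim members have no readable fold.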
